A study of Homo sapiens with 4 samples.

Results

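Inhibitors of cyclin-dependent kinases (CDKs), the D-type cyclins and their partner kinase CDK6 were followed in 22Rv1 cells, an established human prostate cancer line, exposed for 16 h to the herbal extract WCE at 10 µg/mL or to vehicle. The set held 10 genes: the CIP/KIP inhibitors CDKN1A, CDKN1B and CDKN1C, the INK4 inhibitors CDKN2B, CDKN2C and CDKN2D, the cyclins CCND1, CCND2 and CCND3, and CDK6. Every probe that the platform annotation gives to one of these symbols was taken, which made 15 of the 47320 probes and covered 9 of the 10 genes (the annotation names 20046 genes in all). CDKN2C had no probe named for it and is not analysed here. Expression was measured on 4 Illumina bead arrays, 2 from cells treated with WCE and 2 from cells treated with vehicle. All arrays come from the one cell line, and the labels do not say whether arrays of a group were separate cultures, and the p-values therefore refer to the spread among these 4 arrays, which may be technical.

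D-type cyclins bind CDK4 or CDK6 and, with these kinases, start the phosphorylation of the retinoblastoma protein RB, which releases E2F transcription factors and lets a cell pass from G1 into S phase. INK4 proteins bind CDK4 and CDK6 and keep the cyclin away. CIP/KIP proteins bind whole cyclin-CDK complexes, block those of CDK2 and help cyclin D complexes to form. In prostate cancer cells androgen signalling promotes passage through G1, in part by way of the D-type cyclins.

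The arrays were alike in brightness, with median raw signals of 85.1 and 81.7 for WCE and 83.5 and 82.95 for vehicle. Each array detected 45.2% to 48.9% of its probes, at a detection p below 0.05 against negative controls. The vehicle arrays lay closer together, as the median SD over genes was 0.141 on the log2 scale for WCE and 0.110 for vehicle. Of 8 luminal prostate epithelium markers with a probe 7 were detected, among them KRT8, HOXB13 and TMPRSS2, and KLK3, the gene of prostate-specific antigen, was undetected. Basal (0 of 2) and endothelial (0 of 3) markers were undetected, while 3 of 5 fibroblast and 2 of 4 leukocyte markers were detected, with COL1A2, COL3A1, PTPRC and CD3E undetected. All 3 neuroendocrine markers were detected, and their summed raw signal was 1366 to 1392 with WCE and 1024 to 1087 with vehicle. That of the fibroblast markers was 716.9 to 943 with WCE and 609 to 747.5 with vehicle, and that of the leukocyte markers 894.9 to 1373 with WCE and 1367 to 1492 with vehicle. The part of these markers in the results was not tested.

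The promoters of CDKN1A and CDKN1B are shown because CDKN1A was the gene of the set that passed the test and CDKN1B the inhibitor with the next lowest p. Each window runs from 250 bases before to 50 bases after the annotated start (RefSeq, GRCh38.p14). Capitals mark GCGTG, the core of the element bound by the aryl hydrocarbon receptor, an aromatic-compound sensor, searched on both strands, so that CACGC is the same core on the other strand.
CDKN1A, chr6:36678464-36678763, plus strand: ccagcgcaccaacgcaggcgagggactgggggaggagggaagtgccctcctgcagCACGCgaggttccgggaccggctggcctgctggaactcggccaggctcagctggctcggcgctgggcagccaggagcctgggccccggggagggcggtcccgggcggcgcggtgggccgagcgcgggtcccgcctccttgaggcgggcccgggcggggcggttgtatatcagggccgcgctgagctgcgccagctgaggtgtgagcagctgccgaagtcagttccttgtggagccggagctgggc
CDKN1B, chr12:12717118-12717417, plus strand: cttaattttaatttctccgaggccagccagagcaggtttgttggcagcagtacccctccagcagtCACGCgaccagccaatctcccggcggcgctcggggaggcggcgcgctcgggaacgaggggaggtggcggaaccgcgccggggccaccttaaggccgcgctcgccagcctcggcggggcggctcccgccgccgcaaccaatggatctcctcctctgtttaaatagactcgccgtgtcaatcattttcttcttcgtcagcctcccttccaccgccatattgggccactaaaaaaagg
Each of the 2 windows held 1 such core, starting 195 bases before the annotated start in the CDKN1A window and 185 bases before that in the CDKN1B window. The gene record of CDKN1A begins further upstream than this window. The tables held 12 windows for 7 of the 10 genes, and the core was in 7 of the 12 and in at least 1 window of 6 of the 7 genes (CDKN1A, CDKN1B, CDKN2C, CDKN2D, CCND3 and CDK6). It was in 36.5% of all 35116 promoter windows. The box GGGCGG bound by SP1, searched on both strands, occurred 4 times in the CDKN1A window and 1 time in that of CDKN1B. It was in 9 of the 12 windows and in 45% of all windows. CACGTG, the E-box of MYC and MAX, and GTAAACA, the core bound by FOXO factors, were in neither of the 2 windows, against 7.26% and 3.42% of all windows. A match or its absence describes these letters only.

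CDKN1A had the largest log2 fold change of the set and passed the adjusted threshold. It encodes p21, which p53 and stress pathways induce and which inhibits cyclin-CDK complexes and binds PCNA. Its bright probe (ILMN_1784602) had raw signals of 5351.7 and 5548.2 on the WCE arrays and 2697.5 and 2468.1 on the vehicle arrays. Both WCE arrays lay well above both vehicle arrays, by 1.98- to 2.25-fold in raw signal over the 4 pairs of arrays. After background correction and quantile normalization the log2 signal was 12.33 ± 0.18 with WCE and 11.37 ± 0.04 with vehicle (SD, n = 2 each). CDKN1A rose by 0.96 ± 0.17 on the log2 scale (SE, limma adjusted p = 0.027 over 12136 genes), a 1.94-fold change, with a 95% interval of 0.58 to 1.34 in log2 units. It was 1 of 8 genes of the set that were tested and the single one to pass. Over all genes tested 1.83% passed, 1.15% higher and 0.676% lower with WCE, or 140 and 82 genes (100 and 30 with median scaling of the arrays). Its rise ranked 120th of the 12136 genes by p, and 1.55% of genes had a larger absolute log2 fold change. The call did not hold without WCE replicate 2 (adjusted p = 0.0747, log2 fold change 0.83), vehicle replicate 1 (0.126, 0.99) or vehicle replicate 2 (0.113, 0.93). In a fit over single probes this probe also passed (adjusted p = 0.0494 over 21996 probes, of which 0.846% passed). In these whole-culture samples, more RNA per cell and more cells in a state that expresses CDKN1A cannot be told apart.

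The other CDKN1A probe (ILMN_1787212) is annotated to a different transcript record of the gene and lay near background. Its raw signals were 94.2 and 89.9 with WCE and 72.7 and 87.6 with vehicle, and it was detected on both WCE arrays and on 1 of the 2 vehicle arrays, so that it met the detection filter through the WCE arrays alone. The groups did not overlap, but vehicle replicate 2 lay close below the WCE arrays. The log2 fold change was 0.37 with a 95% interval of -0.08 to 0.83 and did not pass (limma adjusted p = 0.375 over all probes). It was 0.20 without background correction, 0.13 without vehicle replicate 1 and 0.61 without vehicle replicate 2. With the mean of both probes standing for the gene, CDKN1A had 0.66 (adjusted p = 0.0745), so its call rested on the bright probe.

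**Figure D1:**
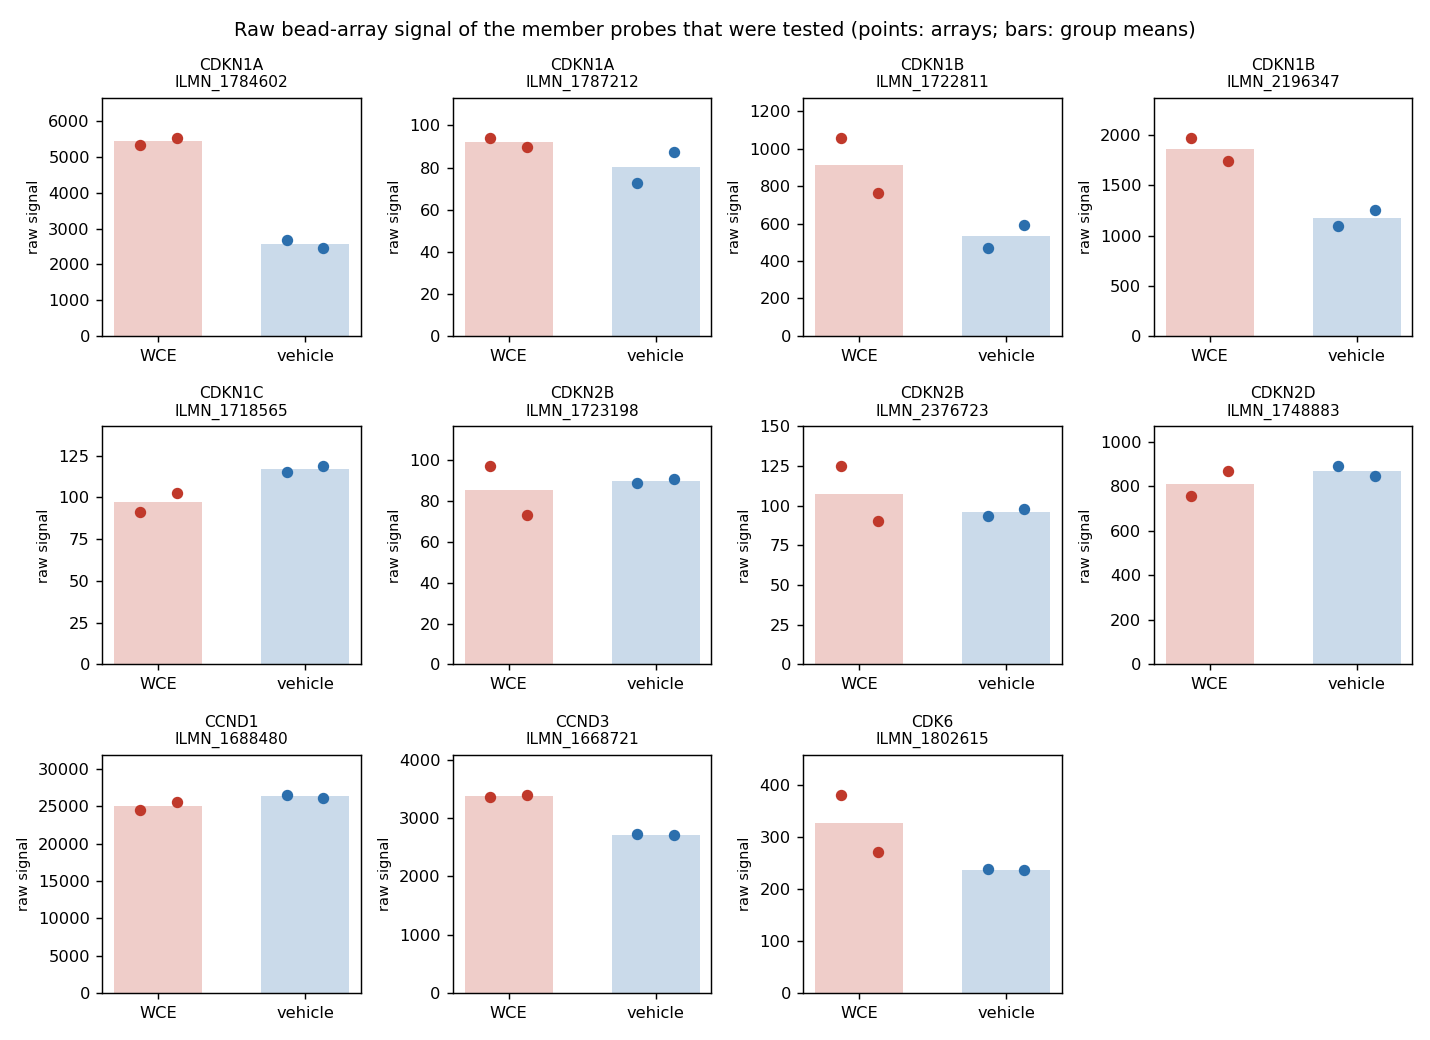
Raw bead-array signal (linear, arbitrary units, axes from 0) of the 11 probes that were tested, with a point for each array and a bar for each group mean, WCE left and vehicle right. The bright CDKN1A probe stood at 5351.7 and 5548.2 with WCE, above 2697.5 and 2468.1 with vehicle, whereas the 4 CCND1 points lay between 24511.9 and 26574.8.

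CDKN1B encodes p27, the inhibitor that holds CDK2 in check in resting cells and that the ubiquitin ligase subunit SKP2 marks for degradation. Both of its probes are annotated to the same transcript record, and both were higher with WCE without passing. The brighter (ILMN_2196347) had raw signals of 1974.7 and 1740.1 with WCE and 1093.7 and 1256.1 with vehicle. The groups were well apart, with the WCE arrays 1.39- to 1.81-fold above the vehicle arrays. On the normalized scale the 2 WCE arrays were nearly the same, at 10.74 ± 0.02, against 10.20 ± 0.16 with vehicle (SD, n = 2 each). Its log2 fold change was 0.54 ± 0.16 (SE), with a 95% interval of 0.17 to 0.91 and an adjusted p of 0.134 (limma, over genes). The dimmer probe (ILMN_1722811) had 1058.3 and 764.9 with WCE and 470.9 and 591.5 with vehicle. Here the arrays of a group differed more from each other, and still did not overlap. Its difference on the log2 scale was 0.71 ± 0.20 (SE, limma adjusted p = 0.136 over probes), so the probes gave the same direction and sizes within their errors. Over all genes 10.5% had a larger absolute log2 fold change than CDKN1B.

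CDKN1C encodes p57, the third CIP/KIP inhibitor, which is imprinted and expressed from the maternal allele. Its single probe was dim, with raw signals of 91.2 and 102.8 with WCE and 115.4 and 118.7 with vehicle, and was detected on all 4 arrays. Both WCE arrays were below both vehicle arrays. The log2 signal was 5.47 ± 0.39 with WCE and 6.03 ± 0.08 with vehicle (SD, n = 2 each), and the gap between the WCE arrays, 0.56, was as large as that between the group means. At -0.56 ± 0.20 (SE) on the log2 scale, its fold change was the lowest of the set and did not pass (limma adjusted p = 0.188). It was -0.83 without WCE replicate 2 and -0.28 without WCE replicate 1. Without background correction it was also -0.28, and it was -0.33 with an offset of 50 and -0.29 with the authors' processed values.

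**Figure D2:**
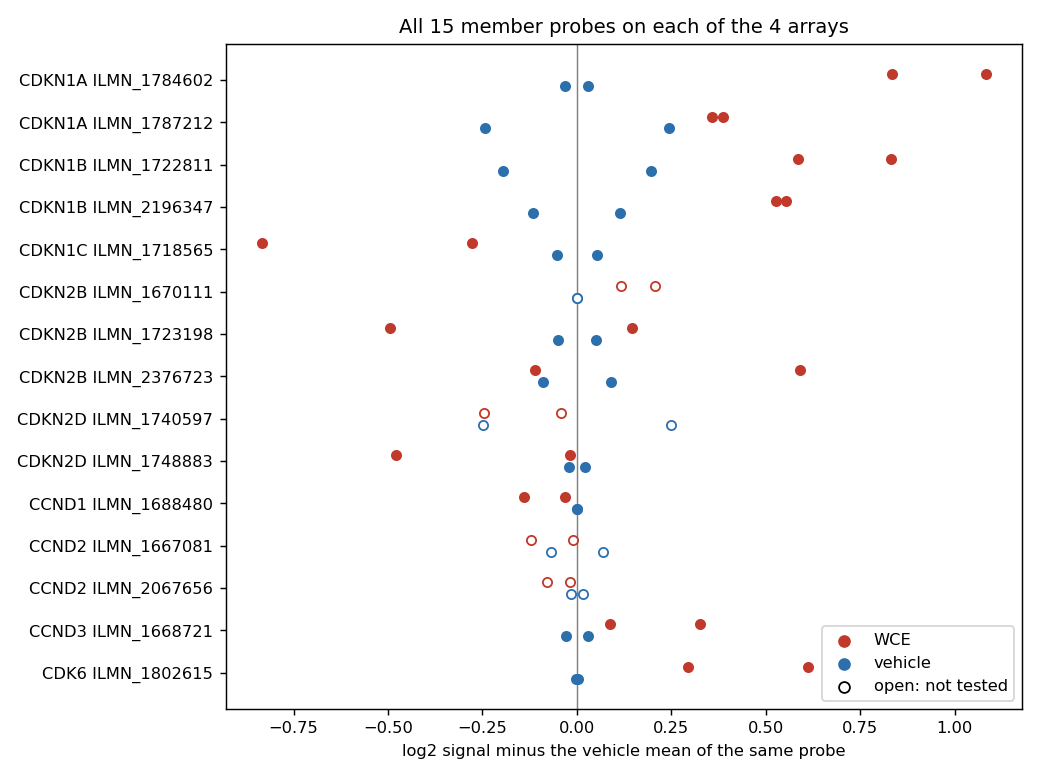
Log2 signal of each of the 15 probes on each array minus that probe's vehicle mean (x axis, log2 units), with the WCE points above the vehicle points of the same probe and open points for the 4 probes that were not tested. Both WCE points lie right of both vehicle points for the 2 CDKN1A and 2 CDKN1B probes, CCND3 and CDK6, and left of them for CDKN1C and CCND1. The dimmer CDKN1A probe (ILMN_1787212) met the detection filter through the WCE arrays alone. Over all genes tested, each by its brightest probe, 50.3% were separated in this way, in either direction. A share over all probes is not given here. Of the probes that were not tested, CDKN2B ILMN_1670111 lies to the right and CCND2 ILMN_2067656 to the left.

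Among the INK4 inhibitors no change was measured beyond the spread of the arrays. CDKN2B encodes p15, which TGF-beta induces in epithelial cells, and had 3 probes, 2 of which were tested. The brighter (ILMN_2376723) had raw signals of 125 and 90.3 with WCE and 93.5 and 98 with vehicle. The WCE arrays stood on either side of the vehicle arrays. Its log2 fold change was 0.24 ± 0.23 (SE, limma adjusted p = 0.627), and it turned to -0.11 without WCE replicate 1. The probe for the other transcript record (ILMN_1723198) had 96.9 and 73.2 with WCE and 88.4 and 90.6 with vehicle. It was detected on 1 WCE array and on both vehicle arrays, so that it met the detection filter through the vehicle arrays alone. Here too the vehicle arrays lay between the WCE arrays, and the log2 fold change of -0.18 (95% interval -0.69 to 0.34) turned to 0.14 without WCE replicate 2. In both probes WCE replicate 1 was the brightest array and WCE replicate 2 the dimmest. The third CDKN2B probe (ILMN_1670111) was undetected on all 4 arrays.

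CDKN2D encodes p19, an INK4 inhibitor whose level varies over the cell cycle. Its brighter probe (ILMN_1748883) had raw signals of 756.2 and 869.3 with WCE and 891.3 and 846.2 with vehicle. WCE replicate 1 alone was low, and WCE replicate 2 lay between the vehicle arrays. The log2 fold change was -0.25 ± 0.19 (SE), with a 95% interval of -0.68 to 0.18 and an adjusted p of 0.527 (limma). It was -0.02 without WCE replicate 1, -0.48 without WCE replicate 2 and -0.12 with median scaling. The other CDKN2D probe was detected on 1 of the 4 arrays, vehicle replicate 2, and was not tested.

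CCND1, the D-type cyclin best known as an oncogene, was bright on every array. Its raw signals were 24511.9 and 25542.1 with WCE and 26574.8 and 26072.8 with vehicle. The WCE arrays were lower by a small margin, at 0.922 to 0.980 of the vehicle arrays. The log2 signal was 14.60 ± 0.08 with WCE and 14.68 on both vehicle arrays, which held the same rank there, as quantile normalization gives equal ranks equal values. The log2 fold change was -0.09 with a 95% interval of -0.44 to 0.27 (limma adjusted p = 0.818), which leaves room for a fall to 0.736-fold or a rise to 1.21-fold. The brightest signals on these arrays reached 34578.1 to 36662.7. The files carry no saturation flags, so whether bright probes responded linearly was not tested.

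CCND3, the D-type cyclin prominent in lymphoid cells, had raw signals of 3369.5 and 3404.7 with WCE and 2721.1 and 2708.2 with vehicle. In raw signal the arrays of each group were close together and the WCE arrays 1.24- to 1.26-fold higher. Normalization pulled the WCE arrays apart, to log2 signals of 11.53 and 11.77 with WCE against 11.42 and 11.47 with vehicle. Its log2 fold change was 0.21 ± 0.17 (SE) and did not pass (limma adjusted p = 0.548). CCND3 had 0.33 without WCE replicate 1, 0.09 without WCE replicate 2 and 0.31 with median scaling. CCND2, the third D-type cyclin, was undetected with both of its probes on all 4 arrays, with raw signals between 51.4 and 82, and was not tested.

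CDK6, the kinase that D-type cyclins activate beside CDK4, had raw signals of 381.2 and 270.4 with WCE and 238.2 and 235.6 with vehicle. Both WCE arrays were higher, WCE replicate 1 by much more than WCE replicate 2. The log2 signal was 8.02 ± 0.22 with WCE (SD, n = 2) and 7.57 on both vehicle arrays. The log2 fold change of 0.45 ± 0.17 (SE), a 1.37-fold difference with a 95% interval of 1.04 to 1.79, did not pass over all genes (limma adjusted p = 0.201). It was 0.29 without WCE replicate 1 and 0.61 without WCE replicate 2.

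**Figure D3:**
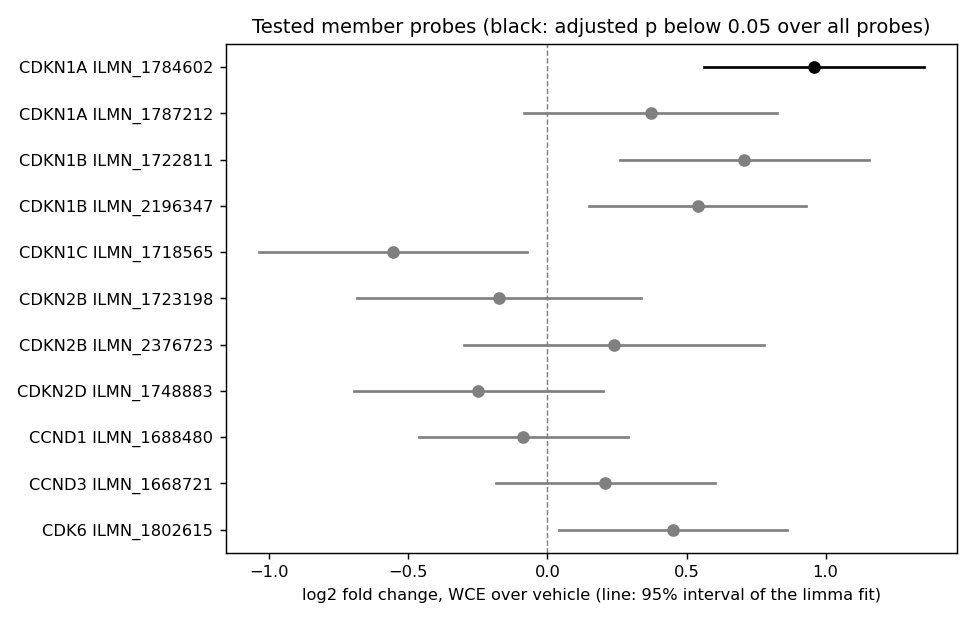
Log2 fold change of WCE over vehicle for the 11 tested probes (points) with the 95% interval of the limma fit (lines), black where the adjusted p over all probes was below 0.05. The bright CDKN1A probe, at 0.96, is the single black point, and the intervals of both CDKN1B probes, CDKN1C and CDK6 also leave out 0 before adjustment.

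Over the whole set, 5 of the 8 tested genes had a positive log2 fold change and 3 a negative one, with a median of 0.22, against 0.01 over all genes tested. Both WCE arrays lay above both vehicle arrays for 4 of them (CDKN1A, CDKN1B, CCND3 and CDK6) and below for 2 (CDKN1C and CCND1). Such separation in either direction was found for 50.3% of all genes tested, with 26.2% higher and 24.1% lower. With median scaling 4 genes of the set were separated upward and 1 downward, against 35.4% and 16.9% of all genes. An unadjusted p below 0.05 was reached by 4 of the 8 (CDKN1A, CDKN1B, CDKN1C and CDK6), against 19.1% of all genes.

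Partners of the set in the G1 control system were described from a list of 26 genes, of which 25 were tested. None passed the threshold, against 1.83% of all genes, and 3 (12%) had an unadjusted p below 0.05 (limma), against 19.1% of all genes. The median log2 fold change was -0.17, and 17 of the 25 were lower with WCE, against 47.8% of all genes (14 and 37.0% with median scaling). CDK4, the other kinase of the D-type cyclins, had log2 signals of 12.02 and 12.26 with WCE and 12.47 and 12.19 with vehicle, which overlap, and a log2 fold change of -0.19 ± 0.18 (SE). CDK2, the kinase that CDKN1A and CDKN1B inhibit, had -0.15 ± 0.17, and its partner cyclin CCNE1 had -0.29 ± 0.16, with both WCE arrays lower. RB1, which encodes the retinoblastoma protein, had 0.33 ± 0.21, and its groups overlapped. CDKN2A, the INK4 gene that encodes p16, had 8.76 and 9.12 with WCE and 9.46 and 9.21 with vehicle, at -0.40 ± 0.19. The lowest p in the list were those of E2F8, a repressor among the E2F factors (-0.73 ± 0.20, limma adjusted p = 0.107), and of E2F1 and E2F2, both activators, which lay in opposite directions at 0.54 ± 0.17 and -0.45 ± 0.16. The E2F8 probe was dim, with log2 signals of 5.54 and 5.99 with WCE and 6.64 and 6.34 with vehicle. The lowest detected signals on the arrays were 5.05 to 5.20. Without background correction E2F8 had -0.41. With 1 array left out, CDK4 ranged from -0.33 to -0.05, CDK2 from -0.26 to -0.03, RB1 from 0.10 to 0.57 and CDKN2A from -0.58 to -0.22.

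Genes that E2F factors activate were described from a list of 32 genes, 8 of them shared with the list of partners. Of 31 tested, none passed, against 1.83% of all genes, and 11 (35.5%) had an unadjusted p below 0.05 (limma), 10 of them lower with WCE, against 19.1% of all genes. The median was -0.28, and 27 (87.1%) were lower, against 47.8% of all genes (26 and 37.0% with median scaling). Both WCE arrays lay below both vehicle arrays for 23 of the 31 (19 with median scaling), against 24.1% of all genes (16.9% with median scaling). POLA1, the catalytic subunit of DNA polymerase alpha, had log2 signals of 8.82 and 8.57 with WCE and 9.26 and 9.43 with vehicle. MCM4, a subunit of the replicative helicase, had 10.94 and 10.84 with WCE and 11.61 and 11.39 with vehicle. UHRF1, which maintains DNA methylation at replication, had 10.68 and 10.78 with WCE and 11.31 and 11.28 with vehicle. In all of these the groups were apart, yet the adjusted p was 0.0958, 0.104 and 0.113 (limma). Their log2 fold changes were -0.65, -0.61 and -0.56 in this order. With the mean of each gene's probes they were -0.40, -0.45 and -0.57.

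**Figure D4:**
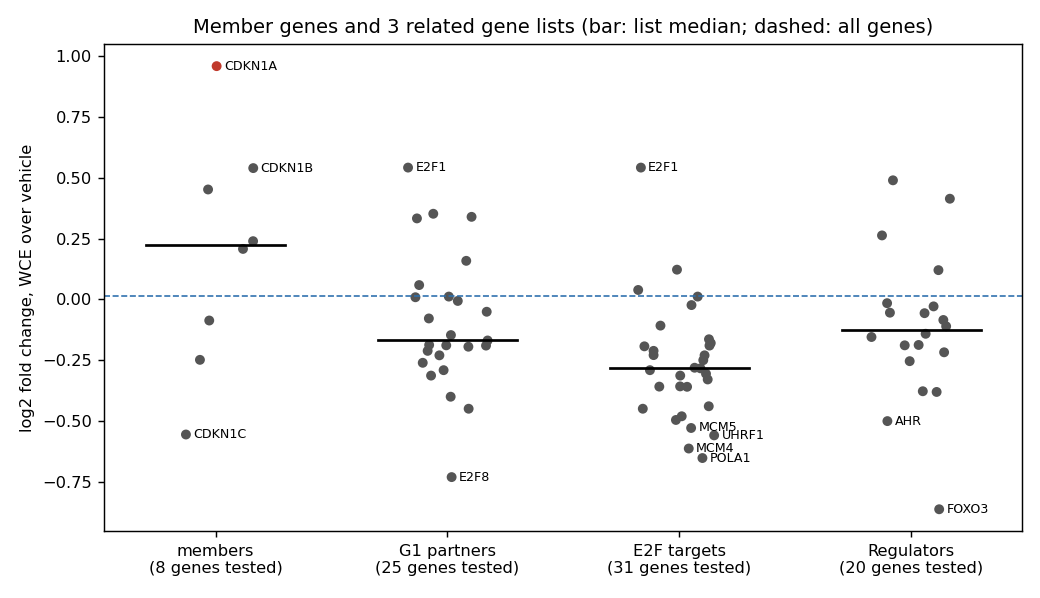
Log2 fold change of WCE over vehicle (y axis) for the 8 tested genes of the set and for the 3 related lists, with a black bar at each median and a dashed line at the median of all genes, 0.01. CDKN1A is the single red point, past the threshold, and the E2F target genes lie mostly below 0, with a median of -0.28.

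Regulators that set the level of these inhibitors and cyclins were described from a list of 25 genes, of which 22 had a probe and 20 were tested. None passed, against 1.83% of all genes, and 6 (30%) had an unadjusted p below 0.05 (limma), against 19.1% of all genes. The median was -0.13, and 16 of the 20 were lower, against 47.8% of all genes (11 and 37.0% with median scaling). FOXO3, a transcription factor that activates CDKN1B, had log2 signals of 9.15 and 8.75 with WCE and 9.86 and 9.76 with vehicle. Both WCE arrays were clearly lower, and its log2 fold change of -0.86 ± 0.18 (SE) lay just beyond the threshold (limma adjusted p = 0.0536). FOXO3 passed without background correction (adjusted p = 0.0178, limma) and not with median scaling (0.149). The replicate block gave 0.00488, in a fit where all genes recomputed shared 1 SE. With 1 array left out, the log2 fold change of FOXO3 ranged from -1.07 to -0.66. SMAD3, which carries TGF-beta signals to CDKN2B, had 0.49 ± 0.17. MYC, which represses CDKN1A and CDKN2B, had 11.34 and 11.43 with WCE and 11.75 and 11.77 with vehicle, at -0.38 ± 0.16. The receptor gene AHR had 12.22 and 11.67 with WCE and 12.44 on both vehicle arrays, at -0.50 ± 0.20. AHR had -0.23 without WCE replicate 2, -0.78 without WCE replicate 1, where it passed (adjusted p = 0.0359, limma), and -0.10 with the mean of its probes, within a range of 0.0359 to 0.826 in adjusted p over 15 alternatives. SKP2 had -0.11 and its cofactor CKS1B 0.41, both named after their values were seen.

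Among 11991 other genes the patterns nearest to that of CDKN1A over the 4 arrays, by Euclidean distance of log2 signals from the vehicle mean, were those of SPRY4, a feedback inhibitor of receptor tyrosine kinase signalling (distance 0.050, log2 fold change 0.94), of GAD1, which makes the transmitter GABA (0.056, 0.93), and of HYOU1, an endoplasmic reticulum chaperone (0.077, 0.91). Those nearest to CDKN1C, the lowest of the set, were GPM6A, a neuronal membrane protein (0.081, -0.54), ESPL1, the protease that separates sister chromatids (0.104, -0.50), and MMP11, a matrix metalloproteinase (0.110, -0.60). With 4 arrays this likeness reflects the size of the difference between groups and the order of arrays within them.

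The rise of CDKN1A was recomputed under 15 other settings. Its log2 fold change stayed positive in all 15, between 0.66 and 1.08, and it passed the threshold in 10. The 10 include a crossed pairing of the replicate numbers, a choice made after seeing the data. In part the constant sign was fixed in advance. Both changes of filter, the trended variance and both replicate blocks left the estimate at 0.96 and changed its p-value only. Leaving out 1 array could not turn the sign, as both WCE arrays lay above both vehicle arrays. Outside the fits with 1 array left out, the adjusted p ranged from 0.00118 to 0.0791 (limma). The lowest was that of the replicate block, where all genes recomputed shared 1 SE (0.224). Its p-values follow the size of the fold change alone.

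**Figure D5:**
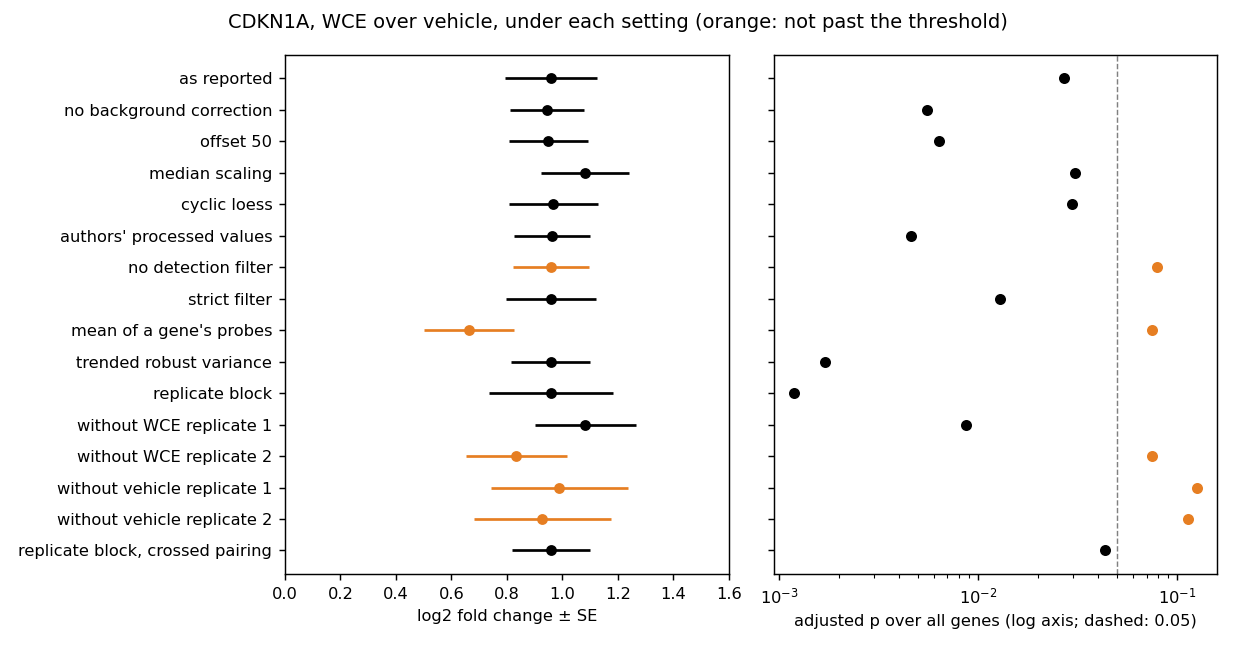
CDKN1A under each setting, with the log2 fold change of WCE over vehicle and its SE on the left and the adjusted p over all genes on a log axis on the right, orange where it was not below 0.05. It passed in 10 of 15 alternatives and did not without a detection filter, with the mean of the gene's probes, or without WCE replicate 2 or either vehicle replicate. The 10 include the crossed pairing of replicate numbers, a choice made after seeing the data.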

How the data were processed

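Gene expression was measured in 22Rv1 cells on 4 arrays, 2 with WCE and 2 with vehicle. The authors deposited raw intensities with a detection p-value beside each, per the file headers, and processed log2 values. The ranks of the deposited log2 values equalled those of the raw signals (lowest Spearman's rho 1). The values differed by at most 0.134 from raw signals that were quantile-normalized without correction and then put on the log2 scale. The scanner software and the authors' normalization stay unknown (not given in the sources used here). Signals were corrected in limma 3.58.1 (R 4.3.3) with normexp, with negative control mean and SD inferred from detection p-values and an offset of 16, then quantile-normalized. A probe was kept if both arrays of 1 group or the other had a detection p below 0.05, which left 21996, and the brightest stood for its gene, giving 12136 genes. Groups were compared with lmFit and eBayes (2 residual and 7.10 prior degrees of freedom), and p-values were adjusted by Benjamini-Hochberg, over all genes or all probes, with a threshold of 0.05. Exact permutation of 2 against 2 arrays cannot go below p = 0.333. The number of arrays limits the precision. The steps were tested on simulated data.

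The genes of the set and the lists were chosen with earlier results of these data known. All probes of the set are reported. From each list the genes named were up to 4 with the smallest p, and CDK4, CDK2, CCNE1, RB1 and E2F1 whatever their values. List genes without a named probe are not analysed here. Alternatives were other background corrections and normalizations, the authors' values, other filters, averaging a gene's probes, a robust variance with a trend, the replicate number as a block and each array left out in turn. A block with the replicate numbers crossed between groups was added after seeing the data. Promoters were read from a RefSeq table (GRCh38.p14), and no gene coordinates were taken from it.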

Additional observations from a re-analysis of the deposited data

How the results depend on the processing

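Of 382 recomputed values of single genes and probes of the set and its lists, 353 kept their direction and side of the threshold, 22 newly passed, 5 lost their call and 2 changed sign. Only CDKN1A had a call to lose, and the 5 losses are all its own, among its 15 alternatives. Apart from those of CDKN1A, the 353 are values that passed in neither fit. The trended variance and the replicate blocks cannot change a log2 fold change. The strict filter left CDKN1C, CDKN2B, E2F8 and the dim CDKN1A probe without a value. The count of genes, 222 as reported, was 390 without background correction, 368 with an offset of 50, 130 with median scaling, 402 with the authors' values, 52 without a detection filter, 457 with a trended variance and 744 with the replicate block. That of probes, 186 as reported, was 401, 397, 101, 419, 21, 471 and 1182 in the same settings, and 350 with the strict filter. With 1 array left out they ranged from 74 to 824 genes and from 53 to 1033 probes. A lone array is then assumed to vary like the other group. In the replicate block every gene recomputed had the same SE (0.224), and every probe 0.233. The calls of that setting therefore follow the size of the fold change alone.

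CDKN1A lost its call without a detection filter (log2 fold change 0.96, adjusted p = 0.0791, limma) and with the mean of its probes (0.66). With 1 array left out it ranged from 0.83 to 1.08, and the number of called genes of the set from 0 to 1, being 0 also without a filter and with the mean of probes. Of the probes of the set, 1 passed as reported, 0 with median scaling, with cyclic loess, without a filter and with the crossed pairing, 2 with the replicate block (the second was CDKN1B ILMN_1722811, adjusted p = 0.0462), and 0 to 1 with 1 array left out. CDKN2B changed sign with 1 array left out (from -0.11 to 0.59), as did its probe ILMN_1723198 (from -0.50 to 0.14).

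Of 25 partner genes none passed except 1 with the replicate block (E2F8), against 744 of all 12136 genes. Of 31 E2F targets 3 passed without background correction, against 390 of 12136 genes, and 2 with an offset of 50, against 368. With the authors' values 3 passed, against 402, and with a trended variance 3, against 457. Of 20 regulators 1, FOXO3, passed in each of these 4 settings and with the replicate block. It also passed with the strict filter, as 1 of 19, against 303 of 10134 genes. The deviations of same-numbered arrays had a weak negative correlation (r = -0.16 across genes), and the labels state no pairing. With the numbers crossed, a choice made after seeing the data, 167 genes and 73 probes passed. Signal over background limits the dim probes, such as those of CDKN1C, CDKN2B and E2F8.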
